A study of Mus musculus with 64 samples.

Results

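Bone marrow-derived macrophages (BMMs) of mice without the aryl hydrocarbon receptor (AhR) were compared after 20 h with hk S.E., a preparation of Salmonella Enteritidis killed by heat, and after 20 h without it. The 8 libraries were chosen by their labels alone, as the 4 of Ahr-/- cells without ligand and with hk S.E. activation at 20 h and the 4 of Ahr-/- cells without ligand and without activation at 20 h, out of 64 libraries in the series. All 8 cultures came from Ahr-/- (KO) mice and carried the vehicle DMSO (0.01%, for 6 h) in place of an AhR ligand before activation. They differed only in whether hk S.E. was added, at 10000000 bacteria per ml. Libraries of KO BMMs at 3 h, with and without hk S.E., and of Ahr+/+ (WT) C57BL/6 BMMs at 20 h, with and without hk S.E., all in DMSO, were used for comparison, with 4 libraries in each group. The knockout is a whole-body one, so every cell of the culture lacked the receptor, and the cells were grown from marrow in medium with L929 cell supernatant as the source of M-CSF. The KO mice were C57BL/6 animals bought from another supplier, and their line was back-crossed in-house several times to C57BL/6JRj. The WT mice were bought as C57BL/6JRj, so that genotype and mouse line cannot be told apart in the comparison with WT cells.

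Heat-killed Gram-negative bacteria carry lipopolysaccharide and lipoproteins, which macrophages sense through Toll-like receptors. The receptors switch on NF-κB and interferon regulatory factors within minutes to hours, and the first products, among them TNF and type I interferon, act back on the same cells. A late time point can therefore show secondary and feedback programmes beside the primary one. AhR is a ligand-activated transcription factor of the bHLH-PAS family that is known to be induced in activated macrophages and to alter their cytokine output.

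The 8 libraries ranged in depth from 12152496 to 50644601 gene counts (median 27584192.5), and 14537 genes passed the filter on low counts over all 64 libraries. Levels are given as CPM, a gene's counts relative to the TMM-scaled library size. The defining macrophage markers were strongly expressed in all 8 libraries, with a summed level of 28648 to 33399 CPM over 10 markers without activation and of 20449 to 32491 CPM with it. Markers of other cells were low: summed over each list, T cells reached at most 2.72 CPM, B cells 6.27, NK cells 0.247, dendritic cells 0.495, mast cells 0.300, erythroid cells 0.278 and fibroblasts 8.35. The 8 neutrophil markers summed to 17.0 to 65.9 CPM without activation and 22.2 to 32.4 CPM with it, and Ly6g was at 0 in all 4 activated libraries. Replicates fell into pairs in the activated group, in which the correlation of log2 levels was 0.991 between replicates 1 and 2, 0.994 between 3 and 4, and 0.978 to 0.984 across the pairs. In the unactivated group it was 0.9955 between 3 and 4, but that between 1 and 2, 0.98255, was below the highest across the pairs, 0.98316. Replicate 2 of the unactivated group was the shallowest library. With an offset of 1 CPM in the log2 levels of all genes counted, unactivated replicates 1 and 2 correlated at 0.99686, against at most 0.99527 across the pairs. By that measure the unactivated libraries fell into the same pairs. In the activated group 463 genes, 3.18% of those tested, differed by more than 1 on the log2 scale between the pairs. The labels give no batch that separates them. Values of single libraries are given for many of the named genes below, and for others only a mean and SD or a change.

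Ahr was counted in every library, and its level did not show the deletion. The Ahr levels of the 4 KO libraries without activation were 6.30, 5.44, 8.80 and 8.62 CPM, and those of the 4 activated KO libraries 24.1, 21.3, 25.9 and 28.1 CPM. In WT BMMs at 20 h Ahr stood at 2.62 to 4.72 CPM without and 11.9 to 14.9 CPM with hk S.E., so that the KO libraries lay above the WT libraries in both states. Counts over the whole gene do not tell which exons the transcripts hold, so this level checks nothing about the label. Ahr rose with activation in KO cells by 1.75 ± 0.20 on the log2 scale (SE; adjusted p = 3.01e-11). Ahrr, the AhR repressor and a known AhR target, behaved differently between the genotypes. Its levels were 2.47, 2.23, 3.09 and 3.35 CPM without activation and 0.728, 0.787, 0.626 and 0.810 CPM with it in KO cells, with no overlap, a log2 change of -1.92 ± 0.22 (adjusted p = 2.25e-11). In WT cells they were 4.37 to 5.91 CPM and 4.58 to 6.16 CPM, and the change in KO cells was lower than in WT cells by -2.03 ± 0.28 (difference of log2 changes, SE; adjusted p = 1.95e-06). Of the 12 genes listed for AhR and its targets, 7 were tested, and the classical xenobiotic targets Cyp1a1, Cyp1a2 and Cyp1b1 were among the 5 that did not pass the filter.

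The response was broad. With an adjusted p below 0.01, 4115 genes were higher (28.3% of those tested) and 3783 were lower (26.0%), together 54.3% of the genes tested. The 4 activated libraries did not overlap the 4 unactivated ones for 51.6% of all genes tested, among them 3670 of the genes called higher and 3360 of those called lower. Changes of 1 or more on the log2 scale were found for 1778 genes upwards and 2355 downwards, and changes of 5 or more for 250 and 221. The counts of any list below are to be read against these background shares, since more than 1 in every 4 genes was called in each direction. The median change over all genes tested was 0.02.

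**Figure D1:**
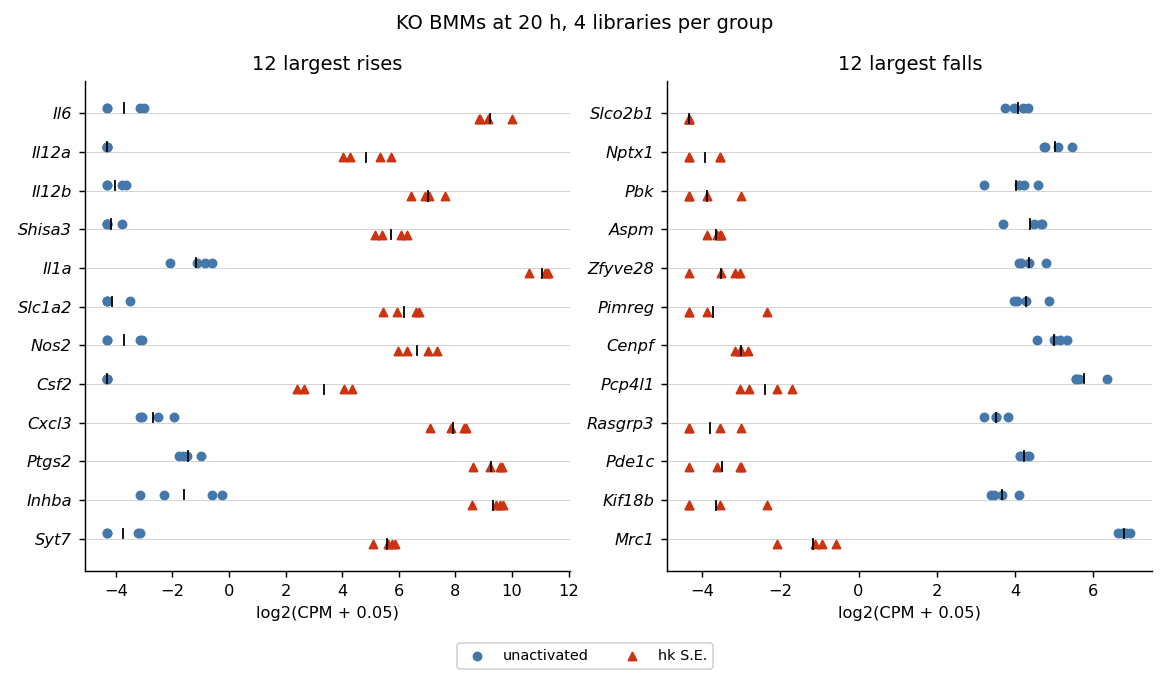
Level of the 12 genes with the largest rises (left) and falls (right) among genes with a mean of at least 10 CPM in the higher group, in KO BMMs at 20 h. Each point is 1 library, the horizontal axis is log2(CPM + 0.05), circles are unactivated and triangles hk S.E.-activated libraries, and black bars are group means. The 2 groups lie apart for all 24 genes, and points at the far left are libraries with no count.

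By the rule on named genes, the 12 largest rises were Il6, Il12a, Il12b, Shisa3, Il1a, Slc1a2, Nos2, Csf2, Cxcl3, Ptgs2, Inhba and Syt7, of which 5 encode interleukin chains or GM-CSF, as the plot of the largest changes shows by library. Il6, an inflammatory cytokine that drives the acute phase response, was at 0.0618, 0, 0 and 0.0761 CPM without activation and at 1021, 569.6, 454 and 465 CPM with it. The unactivated libraries were at or near 0 and the activated ones all above 400 CPM, and the log2 change was 13.75 ± 0.47 (adjusted p = 6.63e-32). With each library left out in turn it was 13.28 to 14.56. Il12a and Il12b encode the p35 and p40 chains of interleukin 12, which directs T cells towards interferon-γ production. Il12a had no count in any of the 4 unactivated libraries and stood at 53.03, 40.03, 16.1 and 19.1 CPM with hk S.E., a rise of at least 1453-fold against a floor of 3 counts over the group. Il12b had 2 counts in all without activation and reached 123, 86.1, 133 and 198 CPM, a ratio of 10608 with a 95% counting interval of 2936 to 87602. Both chains were thus present in every activated library and almost absent before. Csf2, the macrophage growth factor GM-CSF, was likewise at 0 without activation, at 20.3, 16.5, 5.19 and 6.16 CPM with it, and at least 536-fold higher.

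The remaining genes of the 12 have other functions. Shisa3, a membrane adaptor, had 1 count in all without activation and 35.4, 41.9, 66.6 and 77.5 CPM with it, a ratio of 8538 with a 95% counting interval of 1532 to 337255. Slc1a2, a glutamate transporter best known from astrocytes, had 2 counts in all and then 104, 96.5, 43.6 and 61.7 CPM, a ratio of 5380.4 with an interval of 1489 to 44434. Syt7, a calcium sensor of lysosome exocytosis, was at 0.0618, 0, 0 and 0.0571 CPM and then at 53.5, 34.3, 49.5 and 57.99 CPM. All 3 were close to 0 in every unactivated library.

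Of the 28 cytokines tested, 20 rose and 3 fell, with a median log2 change of 3.81. Tnf went from 20.5, 22.5, 16.01 and 17.8 to 1487, 1157, 1307 and 1345 CPM. Il1b went from 5.99, 7.73, 8.29 and 7.88 to 6636, 6134, 2356 and 3287 CPM, and Il1a from 0.402, 0.186, 0.507 and 0.609 to 2456, 2292, 1540.3 and 2389.99 CPM. The activated libraries were apart from the others for these genes, and for Il1b those of replicates 1 and 2 were higher than those of replicates 3 and 4. The log2 changes were 6.11 ± 0.15 for Tnf, 9.26 ± 0.38 for Il1b and 12.15 ± 0.34 for Il1a. Il10, the main cytokine that restrains macrophage activation, rose more modestly, from 1.01 ± 0.347 to 9.16 ± 1.58 CPM (SD, n = 4; log2 change 3.09 ± 0.32). The 3 cytokine genes that fell were Tnfsf14 (-5.27), Tnfsf12 (-1.95) and Il16 (-1.64).

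Promoters were read to place motifs beside these changes. Sequences of the 250 bases before the start site were found in RefSeq (GRCm38.p6) for 10014 of 14532 gene symbols tested. An NF-κB motif of 10 bases was searched on both strands and was found in 8.69% of all promoters, in 6 of 20 cytokine promoters (30.0%), in 5 of 17 chemokine promoters and in 8 of 24 promoters of the NF-κB factors and feedback inhibitors (33.3%). The promoters of Il6 and Cxcl3, the 2 genes of the 12 largest rises that held the motif among 10 with a sequence, are shown with the matched letters in capitals. Among the 12 largest falls it was found in 2 of 9 promoters, those of Aspm and Pde1c (22.2%). The matches are letters in a window and not measured binding sites.
Il6 (GRCm38.p6, chr5:30012864-30013113, plus strand): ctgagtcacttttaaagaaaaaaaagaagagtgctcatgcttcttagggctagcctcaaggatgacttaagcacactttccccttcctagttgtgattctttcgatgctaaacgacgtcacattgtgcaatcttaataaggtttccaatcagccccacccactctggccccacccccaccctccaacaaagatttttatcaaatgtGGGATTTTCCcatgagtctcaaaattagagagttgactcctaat
Cxcl3 (GRCm38.p6, chr5:90785851-90786100, plus strand): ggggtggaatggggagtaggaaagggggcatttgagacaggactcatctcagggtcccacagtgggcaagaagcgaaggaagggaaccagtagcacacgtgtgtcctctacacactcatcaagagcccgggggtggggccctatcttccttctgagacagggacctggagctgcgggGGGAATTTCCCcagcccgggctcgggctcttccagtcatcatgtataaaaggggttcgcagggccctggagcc

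Chemokines, which recruit neutrophils, monocytes and T cells, showed the highest list median, 5.58 on the log2 scale, or 5.25 with genes that had no count in a group set to their bound. With limma on the deposited variance-stabilised values it was 1.81, below the 2.02 of the interferon-inducible GTPases. Of 24 tested, 18 rose and 5 fell. Cxcl3, a neutrophil chemoattractant, was at 0.0618, 0.124, 0.0691 and 0.209 CPM without activation and 314, 328, 138 and 232 CPM with it. Ccl5, which attracts T cells and monocytes, was at 5.56, 9.77, 12.9 and 14.04 and 4066, 3892, 4310.1 and 4397 CPM. The ranges were far apart for both, with log2 changes of 10.95 ± 0.55 and 8.61 ± 0.29. Ccl2 and Ccl3, monocyte attractants, rose by 5.90 and 6.63. Cxcl9 and Cxcl10, ligands of CXCR3 that interferons induce, rose by 7.17 and 6.51. Cxcl10 was at 165, 95.8, 367 and 294 CPM in the 4 activated libraries, with replicates 3 and 4 above replicates 1 and 2. The chemokines that fell were led by Cxcl14 (-3.83) and Ccl6 (-2.82), and Ccl6, which resting mouse macrophages make, went from 261 ± 36.3 to 36.8 ± 4.11 CPM (SD, n = 4).

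The enzymes that make nitric oxide, itaconate and prostanoids split into rising and falling groups, 12 and 9 of 23. Nos2, the inducible nitric oxide synthase, was at 0, 0.0618, 0.0691 and 0 CPM without and 78.7, 63.04, 161 and 129.6 CPM with hk S.E. Acod1, which makes itaconate from a citric acid cycle intermediate, went from 5.44, 8.97, 12.3 and 14.7 to 4479.9, 3768, 5736 and 5517 CPM. Both were separated in all libraries (log2 changes 11.73 ± 0.60 and 8.86 ± 0.27). That of Nos2 was 11.15 to 12.90 with each library left out in turn. Slc7a2, an arginine transporter that feeds nitric oxide synthase, rose by 8.53 ± 0.17, and Arg1, arginase 1, which competes for the same substrate, rose by 2.08 ± 0.42, a call that was lost with replicates 3 and 4 alone (1.16; adjusted p = 0.0752). The prostanoid genes moved in opposite directions. Ptgs2, the inducible cyclooxygenase, rose from 0.247, 0.309, 0.276 and 0.457 to 594, 397, 802 and 769.8 CPM. Ptgs1, the constitutive one, was at 14.8, 18.2, 16.03 and 15.4 CPM before and 0.0633, 0.150, 0.110 and 0.184 CPM after, a change of -6.86 ± 0.32. Alox5 and Ltc4s, enzymes of leukotriene synthesis, had log2 changes of -5.07 and -3.49, and Kmo, of tryptophan breakdown, had a change of -4.81.

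Receptors of the bacterial products themselves were changed in a mixed manner. Of 31 pattern recognition receptors, 16 rose and 6 fell (median 0.51). Tlr2, the receptor of lipoproteins, went from 76.1, 89.9, 109.9 and 108 to 854, 844, 754 and 832 CPM (log2 change 3.10 ± 0.10). Clec4e, a C-type lectin receptor, went from 71.9, 86.96, 143 and 159 to 2812, 2612, 5286 and 5870.2 CPM. In both cases no activated library came near an unactivated one. Tlr4, which senses lipopolysaccharide, had 37.1, 35.4, 90.3 and 84.4 CPM without and 29.7, 29.2, 44.2 and 49.7 CPM with activation (log2 change -0.70 ± 0.28; adjusted p = 0.029). The groups overlapped, and Tlr4 was called lower with the replicate number as a block (-0.63; adjusted p = 0.000829 within genotype and 0.000261 within genotype and time point) and without unactivated replicate 1 or 2 (adjusted p = 0.00877 and 0.00778). Falls were seen for Tlr5, the flagellin receptor (-6.42), Clec7a, the β-glucan receptor dectin-1 (-4.48), Tlr13 (-2.96) and Tlr8 (-2.14).

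Of 29 NF-κB factors and feedback inhibitors, 21 rose and 3 fell, with a median of 1.59. Nfkbia, the inhibitor IκBα, and Tnfaip3, the ubiquitin-editing enzyme A20, both damp NF-κB signalling. Nfkbia went from 69.6 ± 10.5 to 553 ± 29.1 CPM (SD, n = 4) and Tnfaip3 from 40.4 ± 3.07 to 488 ± 78.4 CPM. The largest rises were of Socs3 (6.83 ± 0.20) and Socs1 (6.60 ± 0.34), which block cytokine receptor signalling through JAK kinases. Dusp5, a phosphatase of ERK, and Zfp36, which speeds the decay of cytokine mRNA, were lower, at -4.02 ± 0.23 and -1.71 ± 0.16.

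Among the genes with the largest shares of all counts, shares changed in both directions. Shares are of raw counts without TMM scaling. The TMM factors were 1.31 to 1.33 without and 1.06 to 1.08 with activation, so falls look larger as shares than in CPM, and rises smaller. Fth1, the heavy chain of ferritin, took 0.910% of all counts without activation and 4.28% with it. Ftl1, the ferritin light chain, was at 1.39% and 0.995%, with overlapping groups (lowest unactivated 1.13%, highest activated 1.14%). Saa3, a serum amyloid A protein of the acute phase, took 0.00483% on average without activation and 4.90, 4.96, 2.71 and 2.83% in the 4 activated libraries, which put it at rank 2 among all genes. Every activated library lay far above the unactivated ones, and replicates 1 and 2 were above replicates 3 and 4. Lyz2, the lysozyme gene of myeloid cells, went in the other direction, from 3.15% to 1.73%, Apoe from 0.575% to 0.0759% and Spp1, the secreted protein osteopontin, from 0.656% to 0.0651%. In CPM the groups of Lyz2 overlapped, and its log2 change was -0.56 (adjusted p = 0.00123). Tmsb4x, which binds actin, went from 0.561% to 0.837%, and Tnfrsf1b, a TNF receptor, from 0.0911% to 0.558%. The log2 change of Saa3 was 9.95 ± 0.48 and its adjusted p 2.72e-25. Of 20 genes for metal handling and antibacterial proteins, 10 rose and 5 fell. Lcn2, lipocalin 2, which binds bacterial siderophores, was at 5.10, 3.77, 1.24 and 1.85 CPM without and 2710.3, 2652, 1422 and 1239.9 CPM with hk S.E. Cp, the ferroxidase ceruloplasmin, and Hp, haptoglobin, rose by 5.89 ± 0.21 and 5.64 ± 0.33. Slc40a1, the iron exporter ferroportin, was at 88.4, 90.5, 103 and 88.6 CPM without and 4.75, 3.97, 4.86 and 5.91 CPM with activation, with no overlap (log2 change -4.24 ± 0.20), and Trf, transferrin, had a change of -4.31 ± 0.23.

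Genes of the phagocyte oxidase and of defence against oxidants mostly went up, 14 of 24 against 4 that fell. Cybb, the catalytic subunit of the oxidase, rose from 763 ± 153 to 5274 ± 659.8 CPM (SD, n = 4; log2 change 2.79 ± 0.12). Sod2, mitochondrial superoxide dismutase, and Slc7a11, the cystine importer, rose by 4.32 ± 0.11 and 6.27 ± 0.28. Gpx1, a glutathione peroxidase, fell from 898 ± 180.4 to 161 ± 44.05 CPM.

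**Figure D2:**
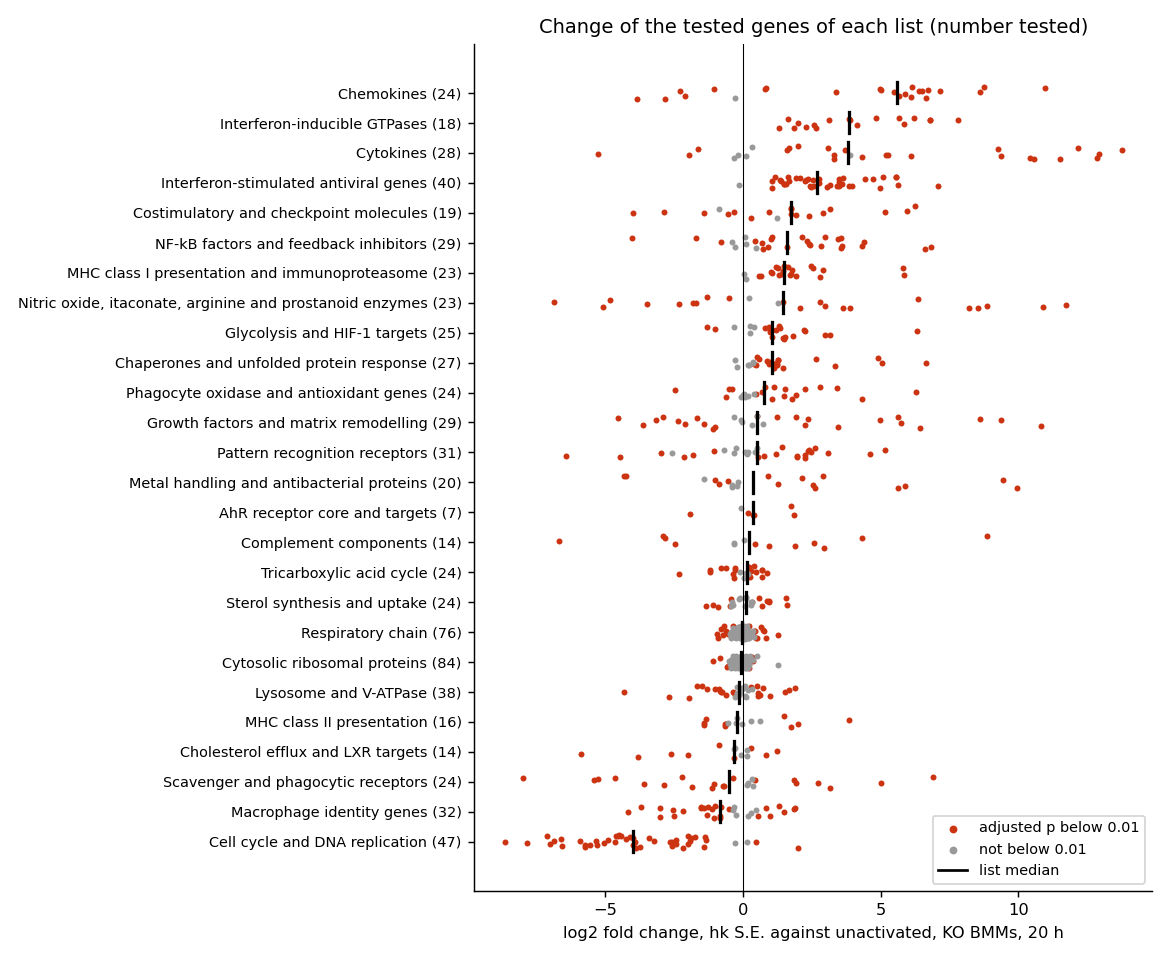
Change of every tested gene of 26 lists in KO BMMs at 20 h. Each point is 1 gene, the horizontal axis is the log2 fold change of hk S.E. against no activation, red points have an adjusted p below 0.01 and black bars are list medians. Chemokines have the highest median, 5.58 (1.81 on the deposited variance-stabilised values, where GTPases are at 2.02), and cell cycle genes the lowest, -3.99, while ribosomal protein and respiratory chain genes lie around 0.

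Interferon-stimulated genes were higher as a group. Of 40 antiviral genes, 39 rose and 0 fell (median 2.68), and all 18 interferon-inducible GTPases rose (median 3.87). Isg15, a ubiquitin-like modifier, was at 6.80, 9.46, 10.2 and 10.6 CPM without and 454, 334, 560.4 and 486 CPM with activation. Ifit1, which binds foreign RNA ends, was at 4.51, 4.08, 13.3 and 14.7 and 200.5, 185, 485 and 419.7 CPM, and Rsad2, the antiviral enzyme viperin, at 8.47, 9.22, 20.3 and 19.6 and 235, 132, 861 and 619.7 CPM. For all 3 genes the groups did not overlap, and replicates 3 and 4 stood above replicates 1 and 2 in the activated group. The log2 changes were 5.62 ± 0.25, 5.10 ± 0.42 and 4.99 ± 0.48. Over the whole list of antiviral genes the median difference of replicates 1 and 2 from replicates 3 and 4 was -0.88 without activation and -0.65 with it. For the GTPases it was -0.52 and -0.94. Analysed, after the data had been seen, with replicates 1 and 2 alone, 37 of the 40 antiviral genes rose, and with replicates 3 and 4 alone 38. Gbp2 and Gbp5, guanylate-binding proteins that attack vacuoles of bacteria, rose by 5.68 ± 0.31 and 6.22 ± 0.29, and Irgm1 by 2.01 ± 0.17. Gbp6, Gbp10 and Gbp11 belong to a family of near-identical copies, and their separate values are uncertain.

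The interferon-stimulated response element, searched as GAAA, any 2 bases and GAAA again on both strands, was found in 2.89% of all promoters, in 14 of 28 promoters of the antiviral genes (50.0%) and in 9 of 10 promoters of the GTPases (90.0%). The promoters of Isg15 and Ifit1, whose levels are given above, are shown with the matched letters in capitals. In Isg15 the 3 matches overlap, and in Ifit1 both lie on the opposite strand.
Isg15 (GRCm38.p6, chr4:156200819-156201068, minus strand): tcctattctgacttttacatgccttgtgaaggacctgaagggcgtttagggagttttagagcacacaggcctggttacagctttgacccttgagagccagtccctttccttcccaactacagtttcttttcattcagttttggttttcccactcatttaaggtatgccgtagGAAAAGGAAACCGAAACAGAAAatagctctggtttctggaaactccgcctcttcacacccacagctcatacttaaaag
Ifit1 (GRCm38.p6, chr19:34640639-34640888, plus strand): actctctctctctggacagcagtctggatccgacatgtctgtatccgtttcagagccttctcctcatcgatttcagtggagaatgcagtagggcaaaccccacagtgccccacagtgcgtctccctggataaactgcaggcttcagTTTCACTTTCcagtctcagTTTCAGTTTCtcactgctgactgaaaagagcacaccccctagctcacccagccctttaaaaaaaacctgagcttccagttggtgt

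Antigen presentation differed between the 2 classes of MHC. Of 23 genes of class I presentation and the immunoproteasome, 21 rose and none fell (median 1.47). H2-K1, B2m and the peptide transporter Tap1 rose by 1.72 ± 0.09, 1.43 ± 0.07 and 2.54 ± 0.13. The largest values were those of H2-Q7 (5.83 ± 0.25) and H2-Q6 (5.80 ± 0.28), which are near-identical copies whose reads the counting may have split. Of 16 class II genes, 4 rose and 6 fell. The chains of the same class II molecule moved apart. H2-Ab1, the β chain of I-A, was at 9.55, 12.1, 5.09 and 6.34 CPM without and 146, 184, 56.8 and 83.7 CPM with activation, with no overlap (log2 change 3.86 ± 0.36). H2-Aa, the α chain, was at 10.97, 9.96, 7.42 and 9.61 and 7.79, 6.22, 4.31 and 7.49 CPM, with overlapping groups (log2 change -0.55 ± 0.24; adjusted p = 0.0456), and was called lower with the replicate block (-0.56; adjusted p = 0.00324 and 0.000153). Cd74, the invariant chain, had a log2 change of -0.24 ± 0.26 (adjusted p = 0.429), and Ciita, the master regulator of class II, one of 0.60 ± 0.39 (adjusted p = 0.179). Ifi30, a lysosomal thiol reductase, fell, with a change of -1.43 ± 0.13.

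Costimulatory and checkpoint molecules changed in both directions, 12 up and 5 down of 19. Cd40, the receptor of T cell help, went from 2.13, 3.15, 2.49 and 2.65 to 158, 129, 174 and 184 CPM, and Cd274, the ligand PD-L1, from 24.1, 29.2, 36.9 and 34.8 to 1094, 829, 1292 and 1235 CPM. Both were far above their unactivated levels in every library (log2 changes 5.97 ± 0.19 and 5.15 ± 0.17). Cd86 rose by 1.74 ± 0.20 and Cd80 by 0.96 ± 0.13. Havcr2, the inhibitory receptor TIM-3, and Vsir, the checkpoint ligand VISTA, changed by -3.99 ± 0.16 and -2.88 ± 0.20.

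The lowest list median was that of the cell cycle. Of 47 genes of the cell cycle and DNA replication, 43 fell and 2 rose, with a median of -3.99. Cenpf, a kinetochore protein, was at 40.1, 23.4, 35.5 and 31.5 CPM without and 0.0633, 0.0750, 0.0736 and 0.0920 CPM with activation. Ccna2, the S phase cyclin, was at 77.2, 36.9, 70.95 and 61.8 and 0.475, 0.150, 0.258 and 0.202 CPM, and Plk1, a mitotic kinase, at 45.5, 25.5, 24.4 and 23.98 and 0.158, 0.150, 0.221 and 0.276 CPM. All unactivated libraries were far above all activated ones. The log2 changes were -8.63 ± 0.37, -7.84 ± 0.35 and -7.11 ± 0.33. The 2 genes that rose were Ccnd2, a G1 cyclin (2.02 ± 0.21), and Cdkn1a, which encodes the inhibitor p21 (0.48 ± 0.11). In bulk RNA, fewer dividing cells and less RNA of these genes per cell cannot be told apart. Aspm, Kif18b, Pbk and Pimreg, which also serve in mitosis, were among the 12 largest falls. Pbk had 3 counts in all in the activated group, a ratio of 849 with an interval of 290.4 to 4122.

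The other 7 of the 12 largest falls were of Slco2b1, Nptx1, Zfyve28, Pcp4l1, Rasgrp3, Pde1c and Mrc1. Slco2b1, an organic anion transporter, was at 19.9, 18.4, 15.8 and 13.4 CPM without activation and had no count with it, at least 751-fold lower. Mrc1, the mannose receptor CD206, was at 114, 99.1, 123 and 106 CPM and then at 0.412, 0.187, 0.626 and 0.478 CPM. None of the activated libraries reached 1 CPM (log2 change -7.98 ± 0.29). Nptx1, a neuronal pentraxin, went from 43.5, 26.7, 33.98 and 26.97 CPM to 3 counts in all, a ratio of 1526 with an interval of 522 to 7401. Pcp4l1 was at 80.7, 47.2, 46.6 and 49.2 CPM without and 0.0950, 0.187, 0.258 and 0.0736 CPM with activation. Rasgrp3, an activator of Ras proteins, had a change of -8.46 ± 0.56, Pde1c, a cyclic nucleotide phosphodiesterase, one of -8.44 ± 0.33, and Zfyve28 one of -8.996 ± 0.41. The groups were apart in all 7 genes. Of 24 scavenger and phagocytic receptors, 13 fell and 7 rose. Trem2, a lipid-sensing receptor, went from 977 ± 188 to 25.2 ± 1.67 CPM (SD, n = 4) and Cd36, a scavenger receptor of fatty acids, from 557 ± 178 to 76.1 ± 24.5 CPM. Marco, a scavenger receptor that binds bacteria, did the opposite. It was at 12.3, 21.5, 15.2 and 15.9 CPM without and 2603, 2726, 1276 and 1099 CPM with hk S.E., with no overlap and a log2 change of 6.90 ± 0.48.

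Macrophage identity genes fell more often than they rose, 19 against 7 of 32 (median -0.83). Ccr2 and Cx3cr1, receptors that guide monocytes and tissue macrophages, had changes of -4.18 ± 0.36 and -3.70 ± 0.26. Adgre1, which encodes the marker F4/80, went the other way, from 1108, 1165, 1439.7 and 1553 to 4701, 5068, 4488 and 4730.1 CPM, a change of 1.85 ± 0.07. Spi1, the lineage factor PU.1, had a log2 change of 0.17 ± 0.15 (adjusted p = 0.319). The complement list was split by function. C1qa, C1qb and C1qc, the chains of the recognition molecule C1q, fell, with changes of -2.48 ± 0.17, -2.91 ± 0.16 and -2.85 ± 0.17. C3 and Cfb, which form the alternative pathway convertase, rose by 4.34 ± 0.15 and 8.87 ± 0.25. Of 38 lysosomal genes, 10 rose and 15 fell (median -0.14). Lipa, the lysosomal acid lipase, and Ctsl changed by -2.67 ± 0.13 and -1.94 ± 0.09, and Ctsc by 1.67 ± 0.11.

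Growth factors and genes of matrix remodelling went both ways, 13 up and 10 down of 29. Inhba, the subunit of activin A, was at 0.154, 0.0618, 0.783 and 0.609 CPM without and 682, 382, 763 and 822 CPM with activation (log2 change 10.42 ± 0.46). F10, coagulation factor X, rose by 6.42 ± 0.25. Igf1, insulin-like growth factor 1, went from 751 ± 149 to 99.1 ± 17.05 CPM (SD, n = 4), and Plau, the urokinase, changed by -4.52 ± 0.16.

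Metabolic lists moved unequally. Of 25 genes of glycolysis and HIF-1 targets, 19 rose and 2 fell (median 1.07), with Slc2a1, the glucose transporter, at 2.26 ± 0.26 and Pfkfb3, a regulator of glycolytic flux, at 2.97 ± 0.21. Of 24 genes of the tricarboxylic acid cycle, 10 rose and 9 fell, and the largest change was that of Idh1 (-2.34 ± 0.10), the cytosolic isocitrate dehydrogenase. Of 14 genes of cholesterol efflux and LXR targets, 3 rose and 6 fell, led by Pparg, a lipid-sensing nuclear receptor (-5.89 ± 0.20), and Apoe (-2.61 ± 0.28). Of 24 sterol genes, 8 rose and 5 fell, and only 2 falls were called with the libraries of the 2 groups alone. Ribosomal protein genes (84 tested, 3 up and 5 down) and genes of the respiratory chain (76 tested, 11 up and 11 down) held few calls beside the 54.3% of all genes, although their counts ranged from 0 to 13 up and 1 to 30 down and from 7 to 18 up and 3 to 22 down over the alternative settings.

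Of 27 chaperones and genes of the unfolded protein response, 21 rose and 0 fell (median 1.05). The 4 largest rises were of genes that the transcription factor ATF4 is known to regulate. Chac1, which degrades glutathione, was at 0.185, 0, 0.138 and 0.0761 CPM without and 11.5, 10.2, 11.9 and 12.03 CPM with activation. Trib3, a pseudokinase, was at 3.86, 5.01, 5.85 and 5.40 and 183, 151, 178 and 159 CPM, and Asns, asparagine synthetase, at 8.13, 6.99, 8.98 and 8.34 and 235, 226, 252 and 266 CPM. The activated libraries lay close together and all above the unactivated ones. The log2 changes were 6.64 ± 0.27, 5.05 ± 0.20 and 4.90 ± 0.16, with 3.35 ± 0.17 for Ddit3, which encodes CHOP, and 2.66 ± 0.11 for Atf4 itself. Hspa5 and Hsp90b1, chaperones of the endoplasmic reticulum, rose by 1.14 ± 0.09 and 0.48 ± 0.13, and the call of Hsp90b1 was lost without activated replicate 1 (adjusted p = 0.0113).

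The composite element that ATF4 binds, searched as TGATGNAA on both strands, was found in 2.04% of all promoters and in 4 of 22 promoters of this list (18.2%). Those of Chac1 and Asns are shown with the matched letters in capitals, which in Chac1 lie on the opposite strand. The promoter windows of Trib3 and Ddit3 held no match.
Chac1 (GRCm38.p6, chr2:119350992-119351241, plus strand): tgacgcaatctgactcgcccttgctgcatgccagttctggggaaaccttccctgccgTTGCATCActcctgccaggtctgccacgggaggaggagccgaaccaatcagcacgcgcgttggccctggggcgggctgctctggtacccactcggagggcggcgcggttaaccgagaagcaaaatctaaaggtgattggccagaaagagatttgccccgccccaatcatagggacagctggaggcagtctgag
Asns (GRCm38.p6, chr6:7693210-7693459, minus strand): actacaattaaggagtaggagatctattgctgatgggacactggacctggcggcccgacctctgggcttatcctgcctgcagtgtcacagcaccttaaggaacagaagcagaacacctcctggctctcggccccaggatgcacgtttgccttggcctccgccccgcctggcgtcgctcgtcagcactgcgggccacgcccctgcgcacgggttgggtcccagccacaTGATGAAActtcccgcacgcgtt

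To set the late response beside the early one, the same contrast was read in KO BMMs at 3 h, in 8 other libraries. At 3 h 3702 genes were higher and 4628 lower. Of the genes higher at 20 h, 2254 were also higher at 3 h, 54.8% of the late and 60.9% of the early list, and 528 were lower at 3 h, 12.8% and 11.4%. Of the genes lower at 20 h, 2239 were also lower at 3 h, 59.2% of the late and 48.4% of the early list, and 340 were higher. A test of the difference between the 2 changes called 44.7% of all genes, 25.2% with a higher and 19.4% with a lower change at 20 h. Over all genes tested the median of this difference was 0.09, and -0.01 with the size factors of DESeq2. Unactivated levels also differed between 3 h and 20 h, so both are given. The identifiers of all 8 libraries at 20 h begin with the same series number and those of the 4 activated libraries at 3 h with another, so that time and identifier series cannot be told apart for them.

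**Figure D3:**
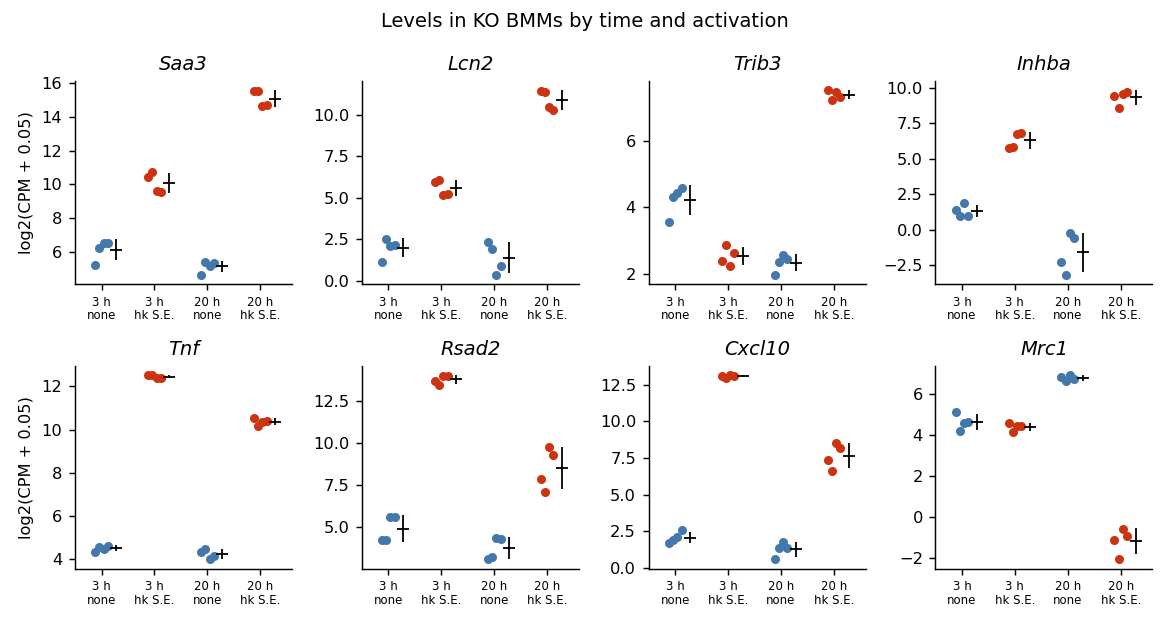
Levels of 8 genes in KO BMMs at 3 h and 20 h without (blue) and with (red) hk S.E. The vertical axis is log2(CPM + 0.05), each point is 1 library, and the black bars beside the points are mean ± SD of the 4 log2 values. Saa3, Lcn2, Trib3 and Inhba are higher in activated cells at 20 h than at 3 h, Tnf, Rsad2 and Cxcl10 are lower, and Mrc1 is lowest in activated cells at 20 h.

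Saa3 was at 74.97 CPM without and 1171 CPM with hk S.E. at 3 h, and at 36.4 and 36039 CPM at 20 h, a difference of log2 changes of 5.99 ± 0.50 (adjusted p = 3.99e-15). Lcn2 went from 4.18 to 50.5 CPM at 3 h and from 2.99 to 2006 CPM at 20 h (5.85 ± 0.51). These acute phase genes were therefore higher in the activated cells at the later time. Trib3, by contrast, stood at 19.2 and 5.75 CPM at 3 h, a change of -1.74, and at 5.03 and 167 CPM at 20 h, a difference of 6.78 ± 0.27. Chac1 (7.34 ± 0.59), Asns (4.52 ± 0.21), Ddit3 (4.53 ± 0.23) and Atf4 (2.44 ± 0.15) differed in the same direction. Marco (4.72 ± 0.56), Inhba (5.40 ± 0.54) and Aqp9, a glycerol channel (7.47 ± 0.27), were also called.

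Inflammatory genes did not share 1 direction in this comparison. Tnf reached 5871, 5774, 5331 and 5304 CPM in the activated libraries at 3 h and 1487, 1157, 1307 and 1345 CPM at 20 h, with no overlap (difference of log2 changes -1.82 ± 0.17). Cxcl10 was at 8834, 7989, 9113 and 8762 CPM at 3 h against 165, 95.8, 367 and 294 CPM at 20 h (-4.49 ± 0.47). The transcripts of both were thus lower late than early, though above their resting levels. For Il1b (-0.12 ± 0.39; adjusted p = 0.815) and Ptgs2 (-0.18 ± 0.50; adjusted p = 0.785) no difference was called. Il6 had the larger change at 20 h (3.79 ± 0.83), with 0.487 CPM unactivated and 475 CPM activated at 3 h. Its activated libraries at 20 h, given above, lay on both sides of 475 CPM. The difference thus rests largely on the unactivated level of Il6, which was at or near 0 at 20 h. Zfp36 was higher at 3 h, 283 to 1439 CPM, and lower at 20 h, 254 to 77.5 CPM (-4.06 ± 0.23). Of the antiviral interferon-stimulated genes, 20 of 40 had a lower change at 20 h and 2 a higher one, and of the GTPases 13 and 2 of 18. For the chemokines these counts were 13 and 2 of 24, for the cytokines 10 and 4 of 28, and for NF-κB factors and feedback inhibitors 22 and 3 of 29.

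Cell cycle genes had lower changes late. The cell cycle list had a median change of -1.10 at 3 h and -3.99 at 20 h, and 40 of 47 genes had a lower change at 20 h. Ccna2 went from 27.8 to 13.8 CPM at 3 h and from 61.7 to 0.271 CPM at 20 h. The unactivated level was itself different between the times. Mrc1 showed the same pattern, with 25.5 and 21.3 CPM at 3 h against 111 and 0.426 CPM at 20 h (-7.72 ± 0.35). C1qb (-3.10 ± 0.22), Trem2 (-4.86 ± 0.17) and Apoe (-2.71 ± 0.38) also had a lower change at 20 h. The lists that hold such genes were mixed, with 5 higher and 16 lower of 32 macrophage identity genes and 5 higher and 4 lower of 14 genes of cholesterol efflux and LXR targets.

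**Figure D4:**
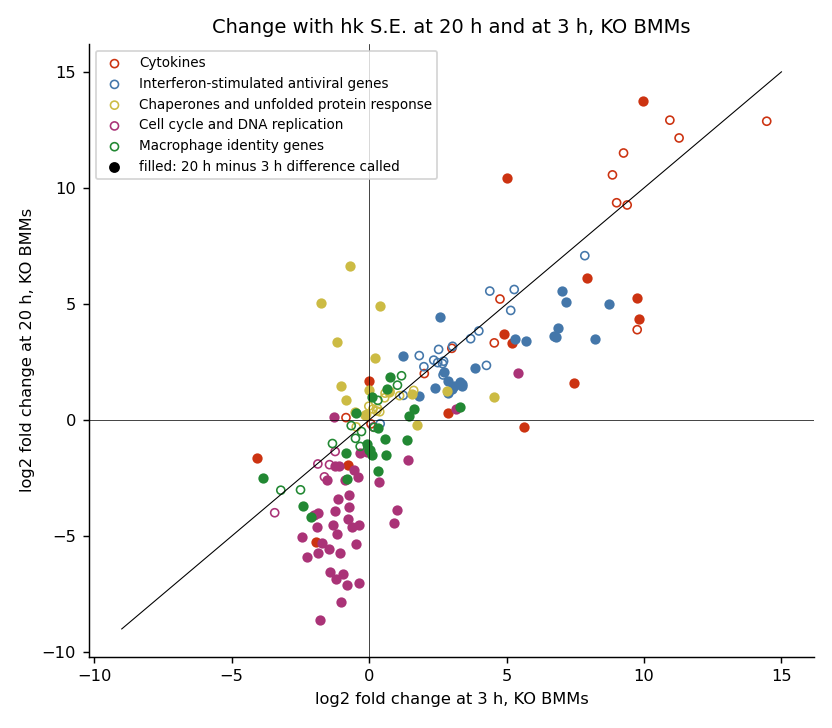
Change with hk S.E. in KO BMMs at 20 h (vertical axis) against that at 3 h (horizontal axis), both as log2 fold change, for the genes of 5 lists. Each point is 1 gene, filled points have a called difference between the times and the diagonal is equality. Cell cycle genes lie below the diagonal with a median of -3.99 at 20 h against -1.10 at 3 h, and Chac1, Trib3, Asns, Ddit3 and Atf4 lie well above it.

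The last comparison asked whether the late response differed without AhR, by the difference of the change with hk S.E. in KO and in WT BMMs at 20 h. It called 641 of 14537 genes, 4.41% of those tested, 2.08% with a higher and 2.33% with a lower change in KO cells. Without replicate 2 of the activated KO group the count was 425. The identifiers of the 4 activated WT libraries begin with another series number than those of the 8 KO libraries, so that genotype and identifier series cannot be told apart for them. Of the unactivated WT libraries, 2 are of the series of the activated WT libraries, 1 is of the KO series and 1 of another. Unactivated WT replicate 4 was the deepest library of all, with 233047331 gene counts against a median of 24499165. Without it 511 genes were called. Il6, Tnf, Il1b, Nos2, Ptgs2, Saa3, Lcn2 and Cxcl3 were not called different between the genotypes (adjusted p = 0.0782 for Il1b and higher for the others). The difference of log2 changes was 0.00 ± 0.17 for Tnf, -0.15 ± 0.47 for Saa3 and -0.85 ± 1.16 for Il6.

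The interferon-stimulated lists lay to 1 side in this comparison. All 40 antiviral genes had a difference below 0 (median -0.77), of which 7 were called, and 17 of 18 GTPases were below 0, none called (0 to 7 over the alternative settings). Among all genes 7062 of 14537 were below 0. Over the alternative settings 2 to 28 of the antiviral genes were called lower and 39 or 40 were below 0. The count was 12 without activated KO replicate 3, without unactivated KO replicate 1 or without unactivated WT replicate 2. Mx1, an antiviral GTPase, was at 75.5, 52.9, 211 and 151 CPM in activated KO and 577, 637, 450.2 and 514 CPM in activated WT cells. Rsad2 was at 235, 132, 861 and 619.7 CPM and 2411, 2077, 1427 and 1979.6 CPM in the same groups. For both genes every activated KO library was below every activated WT library, and replicates 1 and 2 of the KO cells were lowest. The differences of log2 changes were -2.33 ± 0.51 (adjusted p = 0.00135) and -2.21 ± 0.58 (adjusted p = 0.0088), with -1.32 ± 0.30 for Isg15 and -2.14 ± 0.51 for Cmpk2, a nucleotide kinase encoded next to Rsad2. With the 4 groups of this comparison fitted alone the calls of all 4 genes were lost (adjusted p = 0.0162 for Mx1, 0.0555 for Rsad2, 0.0101 for Isg15 and 0.0285 for Cmpk2). The call of Rsad2 was also lost without activated KO replicate 1 or 2, unactivated KO replicate 3 or 4, activated WT replicate 1, 2 or 4, or unactivated WT replicate 1, 3 or 4, each left out in turn (adjusted p up to 0.0294). That of Cmpk2 was lost without activated KO replicate 1 or 2, unactivated KO replicate 3 or 4 or unactivated WT replicate 3 (adjusted p up to 0.0142). Ccl5 had a smaller rise in KO cells (-1.58 ± 0.31; adjusted p = 3.66e-04).

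Some other lists also held more calls than the 2.08% and 2.33% of all genes. Of 47 cell cycle genes, 8 had a higher change in KO cells and 2 a lower one, and 40 lay above 0, with 5 to 15 called higher over the alternative settings. The median change of this list was below 0 in both genotypes, -3.99 in KO and -4.49 in WT cells. Of 29 NF-κB factors and feedback inhibitors, 6 were called lower (4 to 10) and 20 lay below 0. Of 23 genes of class I presentation and the immunoproteasome, 6 were called lower (1 to 11) and 19 lay below 0. Their count was 2 without unactivated KO replicate 2, and 3 without activated KO replicate 1, activated WT replicate 1 or 4, or unactivated WT replicate 1 or 3. Of 24 sterol genes, 5 were called higher (3 to 9) and 20 lay above 0, and 3 were called without KO replicate 2 of either state, activated WT replicate 1 or 2, or unactivated WT replicate 3 or 4. Ribosomal protein genes lay above 0 in 80 of 84 cases, with only 1 called higher (0 to 18). Serpinb6b, a protease inhibitor, was at 0.443, 0.262, 0.184 and 0.276 CPM in activated KO cells and 2.25, 2.35, 2.11 and 4.17 CPM in activated WT cells, with 27.8 and 25.9 CPM unactivated (-3.34 ± 0.43; adjusted p = 7.31e-07). Cytip, which regulates adhesion, was at 1.84, 1.61, 1.88 and 1.91 and 7.64, 10.3, 8.80 and 12.7 CPM (-2.50 ± 0.32). Both fell in both genotypes, and deeper in KO. Trem1, which amplifies inflammatory signals, was at 20.1, 27.8, 12.8 and 17.99 CPM in activated KO and 4.85, 7.14, 5.22 and 6.54 CPM in activated WT cells (2.54 ± 0.35; adjusted p = 1.95e-06). Cish, a feedback inhibitor of cytokine receptors, was at 16.97, 16.9, 5.78 and 8.74 and 3.10, 2.32, 1.82 and 2.36 CPM (2.43 ± 0.46). For these genes the activated KO libraries lay above the WT libraries. Gatm, which makes the creatine precursor, rose in KO cells by 1.74 ± 0.22 and had a change of -0.12 ± 0.22 in WT cells, a difference of 1.86 ± 0.31. Mki67, a marker of proliferation, fell with activation in KO cells (-2.81 to -2.41 with each library left out in turn). Its fall was smaller than in WT cells (difference 1.32 ± 0.25). H2-Aa differed by -1.81 ± 0.34, and was at 4.92 CPM unactivated and 11.9 CPM activated in WT cells.

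**Figure D5:**
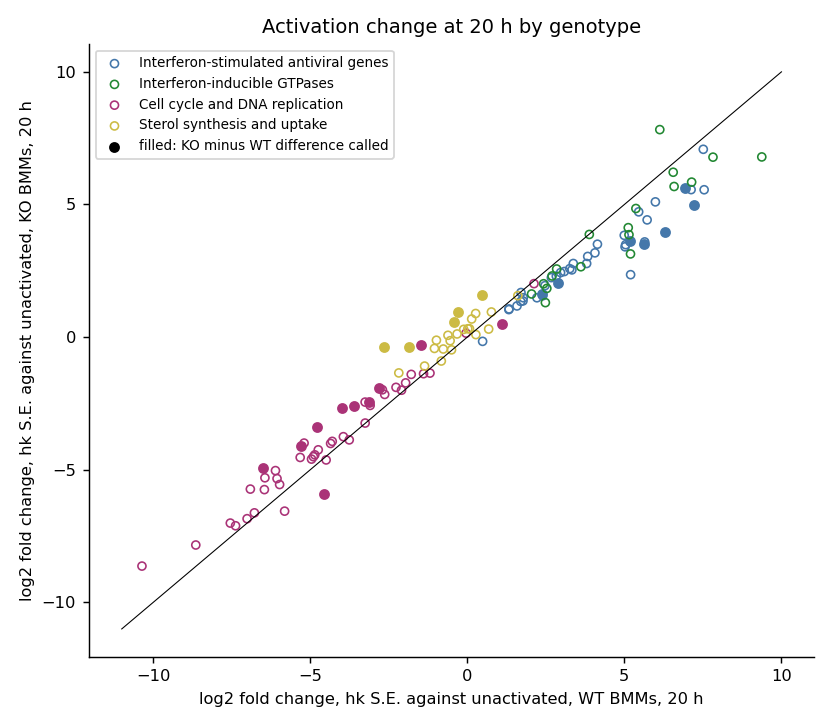
Change with hk S.E. at 20 h in KO BMMs (vertical axis) against that in WT BMMs (horizontal axis), as log2 fold change, for the genes of 4 lists. Each point is 1 gene, filled points have a called difference between the genotypes and the diagonal is equality. All 40 antiviral genes lie below the diagonal, and 7 of them are filled.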

How the data were processed

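RNA of mouse BMMs was sequenced in 64 libraries, all of which entered the fit and 24 of which are described. The authors demultiplexed the reads with bcl2fastq 2.19.0.316, aligned them to mm10 with HISAT2 2.1.0 and counted reads per gene of the GENCODE M22 annotation with htseq-count (HTSeq 0.9.1), intersection-strict and stranded. The deposited files hold raw counts per gene and sample, and a series table of variance-stabilised values on the log2 scale from the authors was used only as an alternative. Gene positions in the annotation used here are of another GENCODE release and were not printed.

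Counts were normalised by TMM and tested with the quasi-likelihood test of edgeR 4.0.16 (R 4.3.3) with a mean for each of 16 groups over all 64 libraries, after filterByExpr with a minimum count of 10, with Benjamini-Hochberg adjustment and a threshold of 0.01. SE is the log2 change divided by the root of F, and may be too small where a group holds few counts. The time and genotype comparisons are differences of 2 activation changes in the same fit. The cells came from 4 mice of each genotype, and the labels do not say which library came from which mouse.

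Groups came from the sample titles. Members, gene lists and tests were chosen with earlier results of these data known. Named genes are the 12 largest called rises and falls with at least 10 CPM in the higher group and no overlap, the first 4 entries and the 4 largest called changes in each direction of each list, and the 8 largest called differences of the other comparisons. For genes with no count in a group, a fold is a bound against 3 counts over the group, and for 1 to 3 counts a ratio with a 95% exact interval, for counting error only. Same-numbered activated and unactivated KO libraries at 20 h deviated together (correlations 0.319 to 0.521 in 4 of 4 pairs). Libraries 1 with 2 and 3 with 4 did so as well (0.328 or more), and only 2 of 4 activated libraries correlated best with their own number. The replicate block takes the numbers to pair the libraries, which these correlations do not show. Motifs were searched in RefSeq promoter sequences of GRCm38.p6. The fit was tested on simulated counts with independent libraries and few changed genes. That test does not cover so broad a response or replicates that fall into pairs. Alternatives were DESeq2 1.42.0, its size factors, other filters and thresholds, limma 3.58.1 on the deposited log2 values, a replicate block, the identifier series as a covariate, fewer groups and each library left out. Some genes that the naming rule picked are not reported here.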

Additional observations from a re-analysis of the deposited data

Results flagged for a closer look

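In 13 of 266 groups of 4 values checked, the highest or lowest library stood apart from the other 3 by the Dixon ratio, and chance flags about 1 in 20 groups. Among unactivated KO libraries at 20 h these were Shisa3 at 0.0230 CPM in replicate 3 and Slc1a2 at 0.0381 CPM in replicate 4, with no count in the other libraries, Cxcl9 at 0.680 CPM in replicate 2 against 0.0691 to 0.114, Slc40a1 at 103 CPM in replicate 3 against 88.4 to 90.5, Plk1 at 45.5 CPM in replicate 1 against 23.98 to 25.54 and Ccnd2 at 5.44 CPM in replicate 2 against 7.82 to 8.16. Pcp4l1 at 80.7 CPM in replicate 1 stood against 46.6 to 49.2, Hsp90b1 at 619 CPM in replicate 1 against 475 to 498, and Serpinb6b at 17.4 CPM in replicate 2 against 30.7 to 32.0. Among activated libraries they were Kmo at 0.0736 CPM in replicate 4 against 0.0317 to 0.0375, B2m at 5132 CPM in replicate 4 against 4787 to 4819, Trem2 at 22.7 CPM in replicate 1 against 25.8 to 26.3 and Atf4 at 799.8 CPM in replicate 1 against 649.6 to 666.

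Differences of the activation change between the genotypes were called for 641 genes. Among the named genes the differences on the log2 scale (KO minus WT) were -3.34 for Serpinb6b, -2.50 for Cytip, -2.33 for Mx1, -2.21 for Rsad2, -2.14 for Cmpk2, -2.03 for Ahrr, -1.81 for H2-Aa, -1.58 for Ccl5 and -1.32 for Isg15, and 2.54 for Trem1, 2.43 for Cish, 1.86 for Gatm and 1.32 for Mki67.

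Differences between 20 h and 3 h in KO cells were called for 6491 genes. Among the named genes they were 7.47 for Aqp9, 7.34 for Chac1, 6.78 for Trib3, 5.99 for Saa3, 5.85 for Lcn2, 5.40 for Inhba, 4.72 for Marco, 4.53 for Ddit3, 4.52 for Asns, 3.79 for Il6 and 2.44 for Atf4, and -7.72 for Mrc1, -4.86 for Trem2, -4.49 for Cxcl10, -4.06 for Zfp36, -3.10 for C1qb, -2.71 for Apoe and -1.82 for Tnf.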

How the results depend on the processing

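The number of genes called with hk S.E. in KO cells at 20 h, 7898, lay between 5866 and 9396 under the other tests, filters and scalings, and only a demand for an absolute log2 change of at least 1 moved it further, to 4133. For the time difference, 6491, that demand gave 3965 and the other settings 5053 to 8007. The count of the genotype difference, 641, was less stable: 266 with the groups compared only, 202 with an absolute log2 change of at least 1, 1327 at an adjusted p below 0.05 and 942 with DESeq2. With each library left out in turn the counts were 7473 to 7822, 6095 to 6401 and 425 to 715, the last lowest without activated KO replicate 2. With the replicate number as a block within genotype, or within genotype and time point, they were 9016 and 9396 for activation, 7625 and 8007 for time and 1505 and 2012 for genotype. For the last 2 comparisons not every same-numbered pair correlated above 0.1 (2 of 4 pairs of WT libraries at 20 h, 0.0482 to 0.253, and 3 of 4 of KO libraries at 3 h, lowest -0.173). For activation as well as for these, the numbers are not shown to pair the libraries. The block added calls of Tlr4 and H2-Aa and ended no call of a named gene. With replicates 1 and 2 of the KO groups at 20 h alone 6188 genes were called for activation and with replicates 3 and 4 alone 6464, 2 settings added after the data had been seen.

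Of the 131 named genes, the activation change of Arg1 (1.16; adjusted p = 0.0752), Cdkn1a (0.46; 0.0153) and Hsp90b1 (0.40; 0.0428) was not called with replicates 3 and 4 alone. The change of Ciita, not called with all libraries, turned sign with replicates 1 and 2 alone (-0.41). The genotype difference of Tnf was 0.000897 with the groups compared only, 0.013 and 0.017 with the replicate blocks, and -0.10 to 0.097 without single libraries. Without single libraries the genotype difference of Saa3 was -0.36 to 0.066, and the time differences of Il1b and Ptgs2 were -0.35 to 0.095 and -0.55 to 0.12. With the 2 groups compared only, the call of Hsp90b1 was lost as well (adjusted p = 0.0145), the falls called were 3 in place of 5 for chemokines and for metal handling, and the rises called were 5 in place of 10 for the tricarboxylic acid cycle and 1 in place of 3 for LXR targets. With the 4 groups of the genotype comparison alone, the calls of Mx1 (adjusted p = 0.0162), Rsad2 (0.0555), Isg15 (0.0101) and Cmpk2 (0.0285) were lost. The causes were not tested. With the size factors of DESeq2, 38.1% of the genotype calls were higher against 47.3%. Depth limits the folds of genes with 3 or fewer counts in a group, for which bounds or intervals are given.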
